A study of Mus musculus with 2 samples.

Results

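The elastic fibre and microfibril genes were followed in cultured mouse rib chondrocytes, the cells that make cartilage. They were set by name, with earlier results of these data known, as Eln, Fbn1, Fbn2, Fbln1, Fbln2, Fbln5, Efemp2, Emilin1, Mfap2 and Mfap5. Every probe set that the platform annotation assigns to 1 of these symbols alone was taken. This gave 17 probe sets for 8 of the 10 genes, out of 34945 probe sets with a single symbol for 18193 genes. Fbn1 and Efemp2, which encode fibrillin-1 and fibulin-4, were not analysed here because no probe set was named for them alone. The study compared a miR-140 knockout culture (miR-140 KO) with a wild-type culture (WT). Both came from mice aged 5 days with the same strain label, which names C57BL/6 and CBA. miR-140 is a microRNA abundant in cartilage, and the arrays were run to look for messenger RNAs that it may repress. Each group has 1 array of total RNA, so no spread between cultures can be set against a difference, no test was possible, and every value below describes this pair of arrays. The labels do not say how many animals, or of which sex, went into each culture.

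Elastic fibres have a core of crosslinked elastin laid down on a scaffold of microfibrils. The microfibrils are built from fibrillins with bound microfibril-associated glycoproteins. Fibulins and emilins sit where core and scaffold meet, and lysyl oxidases crosslink the elastin. Microfibrils also bind latent TGF-beta complexes and BMPs. In hyaline cartilage such as that of ribs, microfibrils surround chondrocytes and elastin is sparse, while the perichondrium, the fibrous layer around cartilage, holds more elastic fibres.

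The knockout label names the microRNA whose 3p arm is shown here for reference, from RefSeq at chr8:107551288-107551308, plus strand, GRCm38.p6, with the seed (bases 2 to 8) in capitals. No probe set was annotated to it, and matches to its seed in the elastic fibre transcripts were not analysed here.
mmu-miR-140-3p: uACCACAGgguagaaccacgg

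Most of the measured elastic fibre genes had higher signal in the knockout array. A gene was compared if either array gave it a log2 signal of 7 or more, and each gene stood by its probe set of highest mean signal. Of the 10 genes, 7 were compared, Mfap5 stayed under that level, and 2 were not analysed. The knockout array read higher for 6 of the 7, where 40.0% of the 9897 genes compared were higher. At least 1.5-fold higher signal was found for 3, Eln, Mfap2 and Fbln2, where 1.56% of all genes compared reached that size. These shares give scale only, because the elastic fibre genes were chosen with earlier results of these data known. None was at least 1.5-fold lower (3.56% of all genes), and none was 2-fold higher (0.475%) or 2-fold lower (1.22%). The median of the 7 differences, each the knockout log2 signal minus the wild-type one, was 0.45, and the median of all genes compared was -0.05. The central 95% of all genes lay between -0.69 and 0.47. When all probe sets of a gene were averaged in place of taking the brightest, 1 gene and not 3 was at least 1.5-fold higher, Fbln2. Its average of 0.67 takes in a probe set near background, at 4.54 in the knockout and 3.92 in the wild type. That average is therefore no second reading of Fbln2. The share over all genes was not taken in that setting, so its count stands without a scale.

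Eln, which encodes tropoelastin, the monomer of the elastin core, had a log2 signal of 8.89 in the knockout array, against 8.06 in the wild-type array, by probe set 1420855_at. This is a difference of 0.83, or 1.77-fold higher, and ranked 74th from the highest among the 9897 genes. The other Eln probe set, 1420854_at, read 7.43 in the knockout and 7.34 in the wild type, a difference of 0.09. Both Eln probe sets were therefore higher in the knockout array, but by sizes 0.73 apart. A gap of at least that size was seen for 6.77% of the 3838 genes with several probe sets compared, whose median gap was 0.25. Probe sets of a gene are hybridised with the same RNA and are not replicates.

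**Figure D1:**
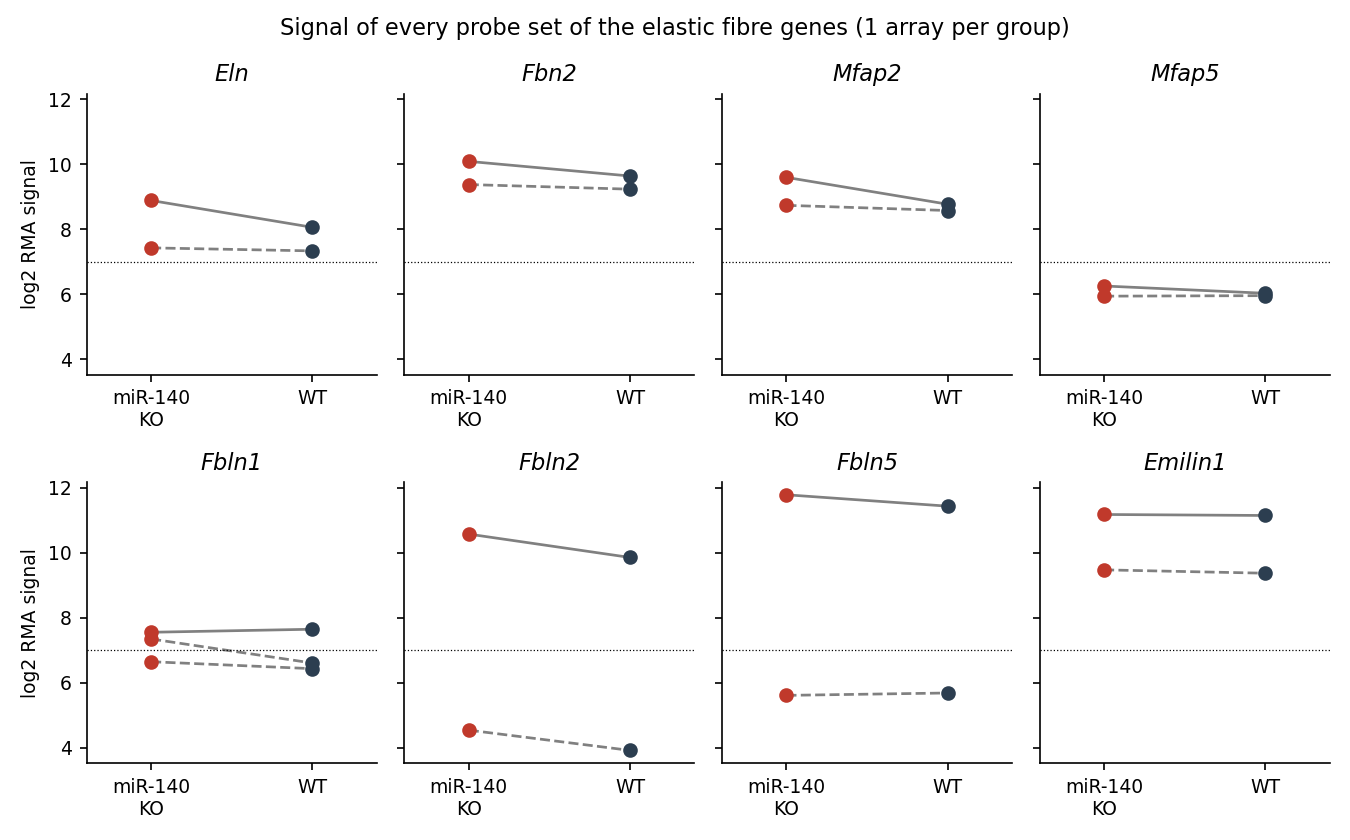
Log2 RMA signal of each of the 17 probe sets, 1 panel per gene, with the knockout array (red) left of the wild-type array (dark blue). Solid lines mark the probe set used for the gene and dashed lines the others. The dotted line is the level of 7 needed for comparison. Eln, Mfap2 and Fbln2 have the steepest solid lines, and both Mfap5 probe sets lie under 7.

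Among the microfibril genes, Fbn2 encodes fibrillin-2, a microfibril building block made mainly in developing tissues. Its 2 probe sets read 10.09 and 9.38 in the knockout array, against 9.64 and 9.24 in the wild-type array. The differences were 0.45 (1.37-fold higher) and 0.14, and the first lay inside the central 95% of genes, with 97.3% of genes below it.

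Mfap2 encodes MAGP-1, a small glycoprotein that binds fibrillin along microfibrils. By probe set 1417359_at it read 9.60 in the knockout array and 8.77 in the wild-type array, a difference of 0.83 or 1.77-fold higher, which ranked 73rd from the highest. Its other probe set, 1447833_x_at, read 8.74 in the knockout and 8.58 in the wild type, a difference of 0.16. The suffix of that probe set marks probes that may also bind other transcripts. As for Eln, both probe sets were higher in the knockout and their sizes were apart, here by 0.67, a gap reached by 9.07% of genes with several probe sets.

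Mfap5 encodes MAGP-2, the second microfibril-associated glycoprotein. Its probe sets read 6.26 and 5.94 in the knockout array, against 6.03 and 5.96 in the wild-type array. These signals are close to background on both arrays, so no difference is read from them. Thus 1 of the 2 MAGP genes gave signal that could be compared.

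Fibulins are glycoproteins with calcium-binding EGF-like repeats that link elastin, microfibrils and basement membranes. Fbln2, found in both elastic fibres and basement membranes, read 10.58 in the knockout array and 9.86 in the wild-type array by probe set 1423407_a_at. The difference of 0.72 is 1.65-fold higher and ranked 104th from the highest. A second Fbln2 probe set read 4.54 in the knockout and 3.92 in the wild type, which is near background on both arrays. Fbln5, which binds tropoelastin and integrins at the cell surface, read 11.79 in the knockout and 11.44 in the wild type. Its difference was 0.35 (1.28-fold higher), with 95.4% of genes below it, and its second probe set was under 7 on both arrays (5.61 in the knockout and 5.69 in the wild type).

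Fbln1, a fibulin of elastic fibres and basement membranes, had no common direction among its probe sets. The probe set used for the gene, 1439688_at, read 7.56 in the knockout array and 7.65 in the wild-type array, a difference of -0.09. A second, 1451119_a_at, read 7.35 in the knockout and 6.61 in the wild type, a difference of 0.74. It was compared only through its knockout signal, and the difference becomes 0.35 when the wild-type value is raised to 7. The third stayed under 7, with 6.65 in the knockout and 6.43 in the wild type. The gap of 0.83 between the 2 compared probe sets was reached by 4.53% of genes with several probe sets, and the average of its 3 probe sets differed by 0.29. Fbln1 is therefore given no direction.

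Emilin1 encodes a glycoprotein at the interface of elastin and microfibrils that also acts in TGF-beta processing. It read 11.18 in the knockout array and 11.15 in the wild-type array, a difference of 0.03. Its other probe set read 9.48 in the knockout and 9.37 in the wild type, a difference of 0.10. Signal was high on both arrays and the probe sets lay 0.07 apart, and 65.5% of genes had a lower difference than Emilin1. Its difference was the nearest to 0 of the 7 genes as deposited, but Fbln1 was nearer with median or lowess centring.

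**Figure D2:**
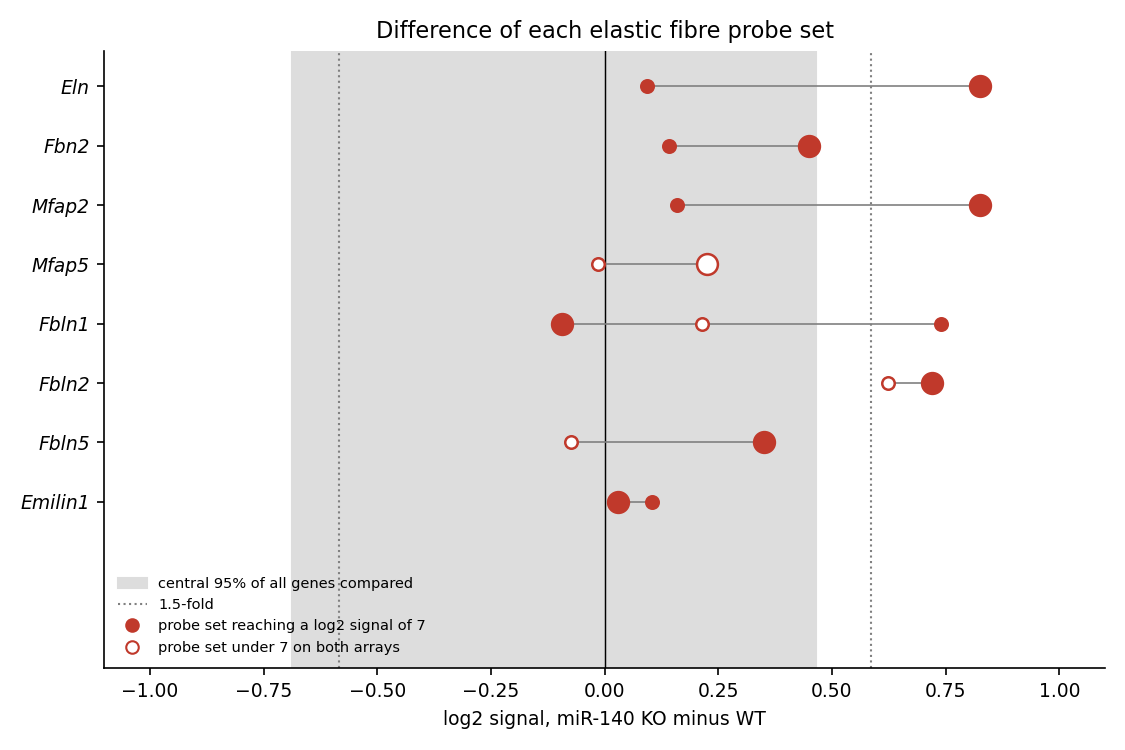
Difference of each probe set (knockout minus wild type, log2 signal) in rows by gene. Large points are the probe sets used for the genes, open points lie under 7 on both arrays, the grey band is the central 95% of all genes compared and dotted lines mark 1.5-fold. The points of Eln, Mfap2 and Fbln2 used for the gene lie right of the band at 0.83, 0.83 and 0.72, and the Fbln1 points run from -0.09 to 0.74.

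Counted by probe set, 12 of the 17 read 7 or more on the log2 scale in either array. Of these, 11 were higher in the knockout array, where 44.3% of all 15862 such probe sets were, and 4 were at least 1.5-fold higher, against 3.24% of all. The 4 belong to Eln, Mfap2, Fbln2 and Fbln1, 1 each. That of Fbln1 was compared only through its higher knockout signal and was not 1.5-fold higher with low values raised to 7. This leaves 3 among the 11 probe sets that read 7 or more on both arrays. Of those 11, 10 were higher in the knockout array. The median over the 12 was 0.26, or 0.16 over the 11 that read 7 or more on both arrays, and over all 15862 probe sets it was -0.03. Of the 5 genes with several probe sets compared, 4 had both probe sets on the same side of 0. Over all genes with 2 or more probe sets compared, 46.7% had probe sets that differed in sign. That share also covers genes with more than 2 probe sets, which have more ways to differ. These shares over all probe sets and genes give scale only. The elastic fibre genes were chosen with earlier results of these data known, and probe sets of 1 gene share the same RNA.

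Promoter windows from RefSeq, 250 bases before to 50 after a gene's start, were searched for 5 of the 7 compared genes. No window was searched for Eln or Fbn2, so the counts over these windows leave both genes out. The windows of Mfap2 and Fbln2 are shown because both genes were over 1.5-fold higher. That of Emilin1 is shown because its probe sets gave differences near 0. The Mfap2 window lies at chr4:141010431-141010730, that of Fbln2 at chr6:91212514-91212813 and that of Emilin1 at chr5:30913536-30913835, each on the plus strand of GRCm38.p6. Capitals mark matches to the GC box GGGCGG on either strand.
Mfap2: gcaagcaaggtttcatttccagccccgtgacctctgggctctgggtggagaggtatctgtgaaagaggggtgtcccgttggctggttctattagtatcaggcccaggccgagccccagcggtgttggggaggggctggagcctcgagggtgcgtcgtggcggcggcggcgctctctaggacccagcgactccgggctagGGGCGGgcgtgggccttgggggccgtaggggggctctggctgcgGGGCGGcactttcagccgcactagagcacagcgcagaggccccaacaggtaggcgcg
Fbln2: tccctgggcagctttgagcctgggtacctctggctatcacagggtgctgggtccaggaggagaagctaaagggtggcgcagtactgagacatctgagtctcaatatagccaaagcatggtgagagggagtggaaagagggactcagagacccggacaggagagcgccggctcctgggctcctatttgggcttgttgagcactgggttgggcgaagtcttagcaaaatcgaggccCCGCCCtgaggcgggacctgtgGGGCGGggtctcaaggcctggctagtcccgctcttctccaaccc
Emilin1: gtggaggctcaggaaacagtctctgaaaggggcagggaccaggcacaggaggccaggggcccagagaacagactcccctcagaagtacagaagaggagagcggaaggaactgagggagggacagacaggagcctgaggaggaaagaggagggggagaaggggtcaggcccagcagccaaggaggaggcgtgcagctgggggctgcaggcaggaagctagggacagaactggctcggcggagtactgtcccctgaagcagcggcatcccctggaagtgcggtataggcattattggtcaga

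The Mfap2 window holds 2 GC boxes, at positions 200 and 244 counted from 1 at its 5′ end, and the Fbln2 window holds 2, at 235 on the minus strand and at 257. The Emilin1 window holds none, and neither does a second Mfap2 window at an upstream start. A GC box is in 4 of the 8 windows of the 5 genes and in 35.7% of all 32851 windows. The 4 are the printed Mfap2 and Fbln2 windows and 1 window each of Fbln5 and Fbln1, the gene given no direction. The 5 letters CAGAC, a SMAD box, occur in the Emilin1 window 2 times, in the upstream Mfap2 window 1 time and in neither window printed for Mfap2 and Fbln2. They are in 6 of the 8 windows and in 49.6% of all windows. TATAAA (13.6% of all windows) and the AP-1 letters TGANTCA (7.81%) were found in none of the 8 windows of the 5 genes. All 4 motifs were searched on both strands, and within a window no match overlapped one of another motif. The 2 Fbln1 windows overlap and share their SMAD boxes. The matches describe the sequence only.

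The levels of Eln, Mfap2 and Fbln2 stood beside a large difference in cartilage genes between the same cultures. Of 14 chondrocyte markers 13 were compared. These 13 were at least 2-fold lower in the knockout array, where 1.22% of all genes compared were. Col9a2 was compared through its wild-type signal, with 6.06 in the knockout array and 9.86 in the wild-type array, and Matn1 was under 7 on both arrays. Their median was -2.09, and the log2 of their summed signal was 14.25 in the knockout and 16.16 in the wild type. Markers of fibroblasts and perichondrium, cells that make elastic fibre proteins, were higher for 13 of the 18 compared of 22 listed, where 40.0% of all genes were higher. Their median was 0.24, with a range of -1.26 to 1.38, and the log2 of their summed signal was 15.87 in the knockout array and 15.65 in the wild-type array. Col3a1 stood at 1.38, Col14a1 at 1.21 and Lum at 0.96, while Postn stood at -1.26. In RNA from a whole culture, more cells of a type and more RNA per cell cannot be told apart. The part of this shift in the elastic fibre values was not tested.

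Smooth muscle cells also make elastin. Of 13 smooth muscle and pericyte markers 6 were compared, 3 higher and 3 lower in the knockout array, with a median of -0.06 and a range of -0.46 to 0.14. Their summed signal was 12.85 on the log2 scale in the knockout array and 13.05 in the wild-type array. Under 7 on both arrays were 7 of the markers, among them Myh11 and Cnn1, contractile proteins that define differentiated smooth muscle. Others were well over that level. Acta2 read 11.39 in the knockout and 11.85 in the wild type, Pdgfrb 11.57 and 11.56, and Tagln 9.14 and 9.10. All 8 skeletal muscle markers were under 7, 1 of 9 endothelial markers (Kdr) was compared, and so were 4 of 8 macrophage and leukocyte markers, with a median of 0.00. Of the 9 osteoblast markers, 3 had no probe set named for them alone and 5 were under 7 on both arrays. The 1 compared was Omd, at -0.90. The cultures also differed in sex-linked genes: Xist read 10.60 in the knockout array and 7.01 in the wild-type array, and the Y-linked Eif2s3y read 4.18 in the knockout and 8.86 in the wild type. Group and this difference cannot be told apart.

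**Figure D3:**
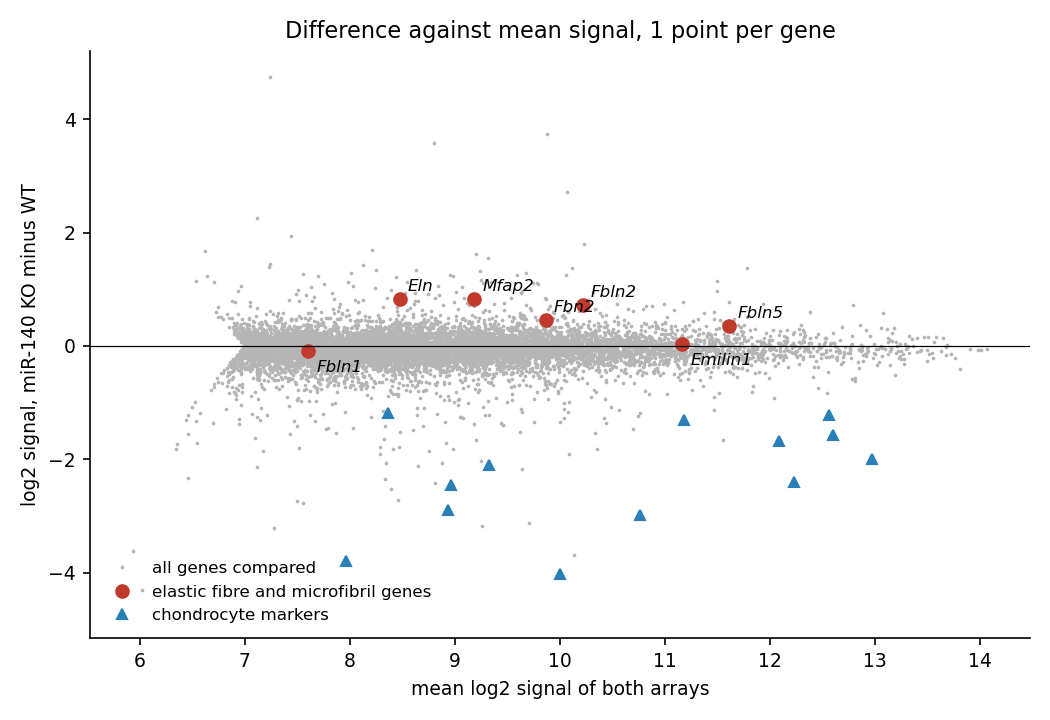
Difference (knockout minus wild type, log2 signal) against the mean log2 signal of both arrays for the 9897 genes compared. Red circles are the elastic fibre and microfibril genes, blue triangles the 13 chondrocyte markers and grey dots all other genes. Eln, Mfap2 and Fbln2 lie at the upper edge of the grey cloud, and all chondrocyte markers lie at -1.18 or lower.

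Other structural proteins of elastic fibres and microfibrils had no common direction. Of 17 listed, 10 were compared, 5 with higher and 5 with lower knockout signal. This is near the shares over all genes (40.0% higher and 59.2% lower). The median was 0.03 and none was past 1.5-fold. The direction of this median changed in 3 alternative settings. The farthest were 2 latent TGF-beta binding proteins, relatives of the fibrillins. Ltbp3 read 11.21 in the knockout and 10.79 in the wild type, a difference of 0.42, with a further probe set at -0.08. Ltbp2 read 11.02 in the knockout and 10.63 in the wild type, a difference of 0.39. Mfap4, a microfibril-associated protein, differed by 0.26. It was compared only through its knockout signal, with 7.25 in the knockout and 6.99 in the wild type. By the probe sets used, the highest of these differences, 0.42, is smaller than those of Fbn2, Fbln2, Mfap2 and Eln. The other probe sets of Fbn2, Eln and Mfap2 stood at 0.14, 0.09 and 0.16. The order therefore depends on the probe set chosen, and it was not tested.

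The crosslinking list was made of lysyl oxidases, the copper transporter Atp7a and the chaperone Fkbp10. Fkbp10 and the lysyl oxidase-like gene Loxl2 had no probe set named for them alone, so no chaperone was measured. Of 5 genes compared of 7 listed, 4 were lower in the knockout array, where 59.2% of all genes were. So few genes cannot be set apart from that share. The median was -0.18, which became 0.03 when all probe sets of a gene were averaged. Atp7a stood at -0.10 by the probe set used and at 0.32 by a further one. Loxl4, a lysyl oxidase-like enzyme, read 9.50 in the knockout and 10.67 in the wild type, a difference of -1.17 or 2.25-fold lower, and its second probe set differed by -0.52. Loxl3 stood at -0.48. Lox, the lysyl oxidase that crosslinks elastin and collagen, read 13.15 in the knockout and 13.33 in the wild type, which differ by -0.18, while its further probe set stood at 0.36. Loxl1, which is needed for elastic fibre upkeep in mice, was the 1 higher gene, with 11.89 in the knockout and 11.51 in the wild type, a difference of 0.38. Both Loxl1 probe sets were higher.

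Genes of microfibril assembly and processing were lower for 7 of 11 compared, close to the share over all genes (59.2%), with a median of -0.13. Adamtsl1 read 6.04 in the knockout and 7.02 in the wild type, a difference of -0.98 that becomes -0.02 when low values are raised to 7. Adamtsl4, which binds fibrillin microfibrils, stood at -0.49. Fn1, the fibronectin on which fibrillin assembles in cell culture, stood at -0.41, with a further probe set at -0.70. Adamtsl5 stood at 0.39. Cell receptors and the elastin receptor complex were higher for 6 of 7 compared (40.0% of all genes), with a median of 0.09. None was past 1.5-fold by the probe set used, but a further probe set of Itgav, an integrin chain, stood at 0.75. Glb1 and Neu1, which encode parts of the elastin receptor complex, stood at 0.34 and 0.13, and the integrin chain Itgb1 at 0.29.

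Proteases that can cut elastin were higher for 4 of 5 compared (40.0% of all genes), with a median of 0.28. None was past 1.5-fold by the probe set used, but a further probe set of Mmp14, a membrane-type metalloproteinase, stood at 0.87. Ctsk, a cathepsin, read 10.18 in the knockout and 9.69 in the wild type (0.49), Mmp2 stood at 0.44 and Ctsl at 0.28. The macrophage elastase gene Mmp12 was under 7 on both arrays. The growth factors that microfibrils hold were higher for 3 of 6 compared (40.0% of all genes), with a median of -0.02. Tgfb2 differed by -1.18 (2.27-fold lower) and Bmp2 by 0.90 (1.87-fold higher), while Tgfb1, Bmp4 and Tgfb3 stood at -0.19, 0.18 and -0.05. Bmp5 stood at 0.01 by the probe set used and at 0.60 by a further one.

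**Figure D4:**
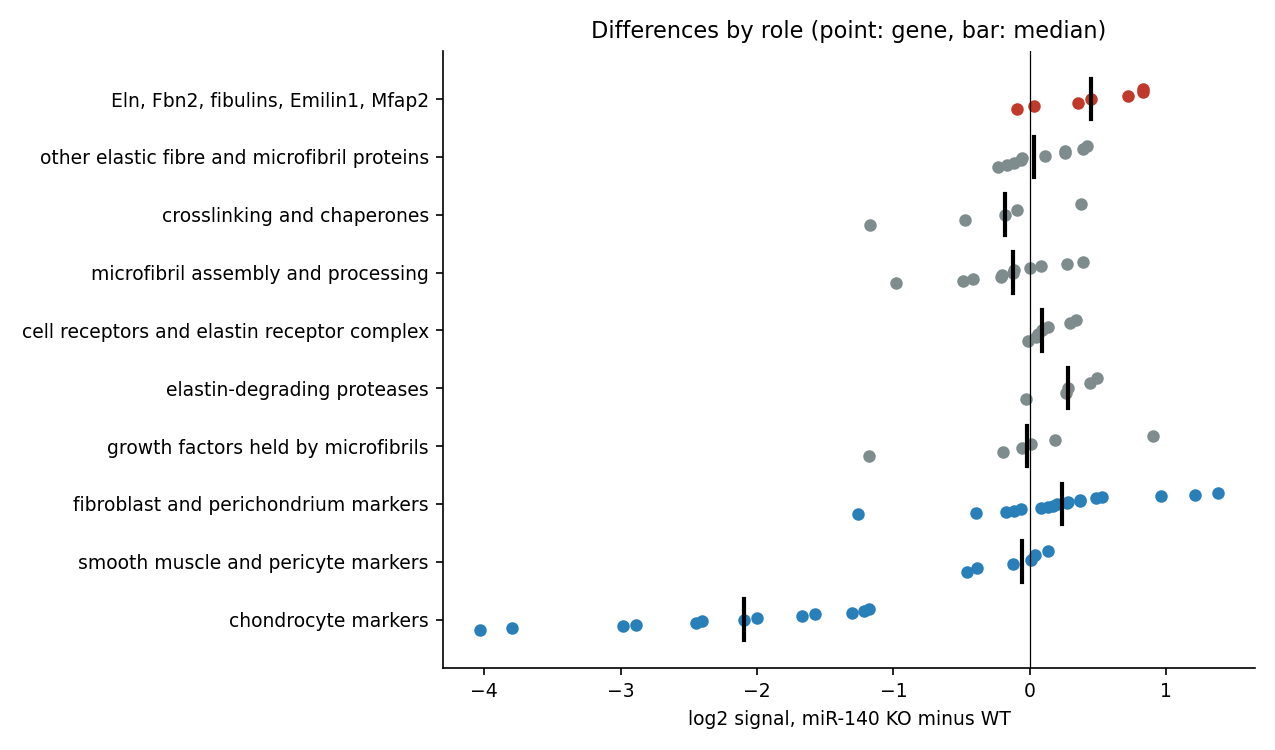
Difference (knockout minus wild type, log2 signal) of every compared gene by role, with 1 point per gene and a black bar at the list median. The elastic fibre genes (top row, red) have a median of 0.45, the crosslinking list -0.18, the fibroblast and perichondrium markers 0.24 and the chondrocyte markers -2.09.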

How the data were processed

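Total RNA of 1 miR-140 knockout and 1 wild-type culture was measured on Affymetrix Mouse Genome 430 2.0 arrays. The authors deposited log2 values summarised by RMA (Robust Multichip Average), as the design text says, using Affymetrix Expression Console 1.1, per the submitters' processing notes. RMA corrects background, normalizes arrays to a common distribution and summarises probe sets. It compresses differences of dim probe sets and removes a shift shared by most genes. Depth has no meaning here, and precision is limited by the number of arrays.

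Of 45101 probe sets, 34945 had 1 gene symbol in the platform annotation, 932 had several, 9160 were not listed and 64 were controls. All 17 probe sets of the elastic fibre genes matched RefSeq by Entrez identifier. For each gene the probe set with the highest mean was kept, and genes with a log2 signal of at least 7 in either array were compared by subtraction (pandas 2.3.3). The log2 sums of marker lists add linear signals over all listed genes with a probe set.

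The members and lists were chosen with earlier results of these data known. All members were named, and from other lists the genes past 1.5-fold and up to 3 more by size, or up to 4 markers. Alternatives were 3 normalizations, floors of 6 and 8, no floor, low values raised to 7 and 2 probe set rules. Counting every probe set was added after seeing the data.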

Additional observations from a re-analysis of the deposited data

How the results depend on the processing

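The differences of Eln, Fbn2, Fbln2, Fbln5, Emilin1 and Mfap2 kept their sign in each of the 9 alternatives that could give a value. Eln ranged from 0.46 to 0.87, Mfap2 from 0.49 to 0.87, Fbln2 from 0.67 to 0.77, Fbn2 from 0.30 to 0.50, Fbln5 from 0.14 to 0.41 and Emilin1 from 0.03 to 0.09. The lower ends for Eln, Mfap2, Fbln2, Fbn2 and Fbln5 came when all probe sets were averaged, which brings in their dimmer probe sets. That setting turned Fbln1 to 0.29 and left 1 gene at least 1.5-fold higher. The count was 3 in the other 8 of these settings, and 4 when every probe set was counted. The median of the elastic fibre genes ranged from 0.30 to 0.58 over the 9 alternatives. It was 0.26 when every probe set was counted, which is a median over probe sets and not over genes. Medians near 0 changed sign in other lists. That of the other structural proteins was -0.027 with no floor, -0.070 when probe sets were averaged and -0.062 without probe sets ending in _s_at or _x_at. That of the crosslinking list was 0.027 when probe sets were averaged. That of the growth factors was 0.025 with median centring, 0.0060 with a further quantile normalization, 0.020 with lowess centring and 0.063 when probe sets were averaged. The cause was not tested. Under a floor of 8 Fbln1 was not compared. No paired analysis was possible because each group has 1 array, and leaving out an array leaves no comparison.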
